A study of Homo sapiens with 6 samples.

Results

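The CXC chemokines described here are CXCL1, CXCL2, CXCL3, CXCL5, CXCL6 and CXCL8 (IL8), which attract neutrophils, together with CXCL12, CXCL14 and CXCL16. Their members were the probe sets whose platform annotation names 1 of these 9 genes. This gave 17 probe sets out of 54613 on the array, and 9 genes out of 19775. CXCL2, CXCL5 and CXCL14 had 3 probe sets each, CXCL8 and CXCL12 had 2 each, and the other 4 genes had 1 each. The last 3 genes are CXC ligands but are not known mainly as neutrophil attractants, so they are described apart from the other 6.

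Expression was measured in IMR90 cells, diploid fibroblasts from human fetal lung, all of which carried an ER:Ras fusion (H-rasV12) that 4-hydroxytamoxifen (4-OHT) switches on. Growing cells received no 4-OHT and no siRNA (n = 2 arrays). Oncogene-induced senescent (OIS) cells were kept for 6 days in 100 nM 4-OHT and were transfected with siRNA 4 days before RNA isolation. Ctrl-KD OIS cells received a control siRNA against luciferase (n = 2), and RB-KD OIS cells received a mixture of 3 siRNAs against RB1 (n = 2). Growing cells were not transfected, so 4-OHT and transfection cannot be told apart in comparisons with them. The labels call the arrays of a state biological replicates, all come from 1 engineered line, and the p values measure the spread between these arrays only. In bulk RNA, fewer cells of a type and less RNA per cell cannot be told apart. The comparison of OIS with growing cells asks which ligand genes change in senescence. The comparison of the OIS states asks which of these changes differ when RB is depleted.

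CXC chemokines are small secreted proteins that guide leukocytes through G protein-coupled receptors. The neutrophil-attracting ones carry a Glu-Leu-Arg motif before the first cysteines and act through CXCR1 and CXCR2. Their genes lie next to each other on chromosome 4, and their transcription is switched on by NF-kB, often with AP-1 or C/EBP factors, after interleukin 1 or TNF. In senescent fibroblasts they belong to the senescence-associated secretory phenotype, the set of cytokines, growth factors and proteases that such cells release. CXCL12 binds CXCR4 and ACKR3 and is made by stromal cells, CXCL14 is a ligand of epithelia and skin, and CXCL16 is a membrane-bound ligand of CXCR6.

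The promoters of the 6 chromosome 4 members are shown because these genes moved together, as described below. Each line gives 150 bases before and 10 bases from the RefSeq start site on GRCh38.p14, 5′ to 3′ on the strand of the gene. Capitals mark every match to GGNNNTTCC, a loose form of the NF-kB site, or to TGANTCA, the AP-1 site, on either strand.
CXCL8 (chr4:73740419-73740578, plus strand): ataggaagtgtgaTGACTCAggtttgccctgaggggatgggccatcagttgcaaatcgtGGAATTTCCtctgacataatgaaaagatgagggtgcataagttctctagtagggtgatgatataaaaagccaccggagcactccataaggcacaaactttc
CXCL6 (chr4:73836528-73836687, plus strand): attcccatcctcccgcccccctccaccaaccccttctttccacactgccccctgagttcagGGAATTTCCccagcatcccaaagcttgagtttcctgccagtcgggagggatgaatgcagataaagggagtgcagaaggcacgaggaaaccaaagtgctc
CXCL1 (chr4:73869243-73869402, plus strand): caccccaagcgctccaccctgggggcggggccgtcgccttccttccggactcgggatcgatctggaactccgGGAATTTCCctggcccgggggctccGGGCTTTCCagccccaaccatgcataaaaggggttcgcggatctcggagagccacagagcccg
CXCL5 (chr4:73998668-73998827, minus strand): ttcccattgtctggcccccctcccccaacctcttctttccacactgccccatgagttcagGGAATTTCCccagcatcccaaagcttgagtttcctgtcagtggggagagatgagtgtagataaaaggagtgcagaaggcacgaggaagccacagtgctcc
CXCL3 (chr4:74038680-74038839, minus strand): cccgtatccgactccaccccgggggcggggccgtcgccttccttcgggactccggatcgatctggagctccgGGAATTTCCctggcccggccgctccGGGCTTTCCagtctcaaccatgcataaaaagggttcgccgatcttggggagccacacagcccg
CXCL2 (chr4:74099186-74099345, minus strand): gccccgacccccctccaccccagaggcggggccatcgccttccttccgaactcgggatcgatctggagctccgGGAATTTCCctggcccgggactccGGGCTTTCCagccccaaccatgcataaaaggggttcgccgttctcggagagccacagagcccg

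All 6 promoters held the letters GGAATTTCC, beginning 77 bases (CXCL2) to 91 bases (CXCL8) before the start site. The promoters of CXCL1, CXCL2 and CXCL3 held a further match, GGGCTTTCC, 53 bases before the start. Among 35116 RefSeq promoters of 300 bases, 20.1% held GGNNNTTCC on either strand. GGAATTTCC itself, which was chosen after the sequences were read, stood on either strand in 0.461% of them. Of these 6 promoters, only that of CXCL8 held the AP-1 letters, 137 bases before the start, against 7.71% of all promoters. A C/EBP form, TTGCNNAA, stood in the CXCL2 promoter alone of the 6 (10.5% of all), and the E2F form TTTNNCGC in none of them (6.89% of all). Only exact matches were counted, so diverging sites were missed. The CXCL8 promoter holds ttgcaaat, which differs from the C/EBP form in its last base only.

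The 6 promoters are not independent sequences. Over 300 bases, those of CXCL5 and CXCL6 were 83.1% identical, those of CXCL1 and CXCL3 82.5%, and those of CXCL2 with CXCL1 and CXCL3 72.1% and 73.8%. The CXCL8 promoter shared 42.6% to 44.9% of aligned bases with the other 5. The promoters of CXCL12 and CXCL14 held no match to the NF-kB form, and CXCL14 held the AP-1 letters 92 bases before its start.

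The deposited values are MAS5 signals, linear brightness values per probe set, scaled to a similar level on every array. The median signal was 46 to 51.8 on the 6 arrays and the highest was 54242 to 64701. A signal of at least 0.5 of the highest on its array is called near the ceiling here, where a rise can be understated, and a signal under the median is called dim. Between 177 and 250 probe sets per array lay near the ceiling. RB1 signals were 2627 and 2528 in growing, 2578 and 1914 in Ctrl-KD OIS and 222 and 228 in RB-KD OIS cells, so the knockdown was seen on both arrays. Of 9 neutrophil markers, 6 were dim on all arrays, CXCR2, FCGR3B and ELANE among them. Their summed signal was 158 to 163 in growing, 167 to 224 in Ctrl-KD OIS and 149 to 260 in RB-KD OIS cells. All 9 fibroblast markers were above the median on every array. Against growing cells, limma (adjusted p under 0.05) called 6 of them lower and 1 higher in Ctrl-KD OIS, and 4 lower and 1 higher in RB-KD OIS. Of all genes tested, 20.7% were called lower and 19.9% higher in the first comparison, and 18.4% and 18.0% in the second. The summed signal of the fibroblast markers was 179660.5 to 181613 in growing, 121935 to 122408 in Ctrl-KD OIS and 140777 to 168750 in RB-KD OIS cells. That of 5 endothelial markers, 2 of them dim on all arrays, was 1318 to 1445, 546 to 559 and 1429 to 1597 in the same order, a shift that came from TEK (means of 1189, 339 and 1295), while PECAM1 and VWF did not pass the test. Of 5 epithelial and 5 measured other leukocyte markers, 3 and 1 were dim on all arrays. The part of these marker shifts in the results was not tested.

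**Figure D1:**
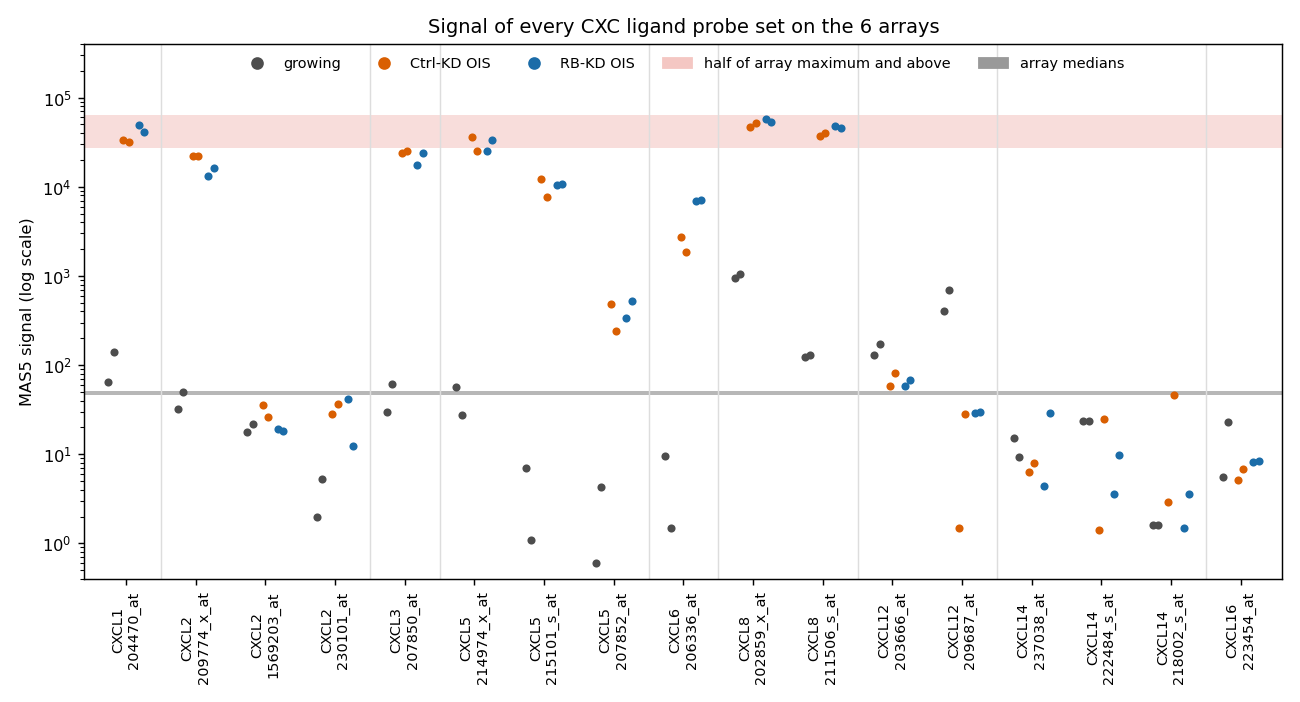
MAS5 signal (log scale) of each of the 17 probe sets on each array, 2 points per state, with the array medians in grey and the range from 0.5 of the array maximum upward in pink. The brightest probe set of each chromosome 4 gene lies at 1838 or above on all 4 OIS arrays and at 1053 or below on both growing arrays, while CXCL14 and CXCL16 stay under the medians.

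CXCL1, CXCL2, CXCL3, CXCL5, CXCL6 and CXCL8 all rose from growing to Ctrl-KD OIS cells. In the brightest probe set of each gene, the rise was at least 44.2-fold for CXCL6, which was dim in growing cells, and 5.63 to 9.58 on the log2 scale for the other 5. CXCL12 fell by 1.11, and at least 11.1-fold in its other probe set, and CXCL14 and CXCL16 were too dim to test. Of the 9 genes, 6 were thus called higher and 1 lower in limma (adjusted p under 0.05 over 30139 probe sets), where 19.9% of the 13398 genes tested were called higher and 20.7% lower. A gene was tested only if it lay above the array median on at least 2 arrays. CXCL2, CXCL3, CXCL5 and CXCL6 met this through their OIS arrays, so the number called among tested members is no support for a rise. Over all 9 genes without this filter the median log2 change was 8.42, or 5.63 with CXCL6 at its bound, against -0.0020 over 19775 genes.

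CXCL8, the ligand of both CXCR1 and CXCR2, read 957 and 1053 in growing cells with its brightest probe set. The same probe set read 47015 and 52419 in Ctrl-KD OIS cells, 85.9% to 86.7% of the highest signal on those arrays. It ranked between 11 and 32 of all 54613 probe sets on the 4 OIS arrays. The other probe set read 122 and 131 in growing cells and 37496 and 40130 in Ctrl-KD OIS cells. No OIS array overlapped a growing array in either probe set. The rise was 5.63 (standard error 0.090, adjusted p = 1.05e-09) in the first and 8.26 (standard error 0.085, adjusted p = 3.49e-11) in the second. All 4 of these Ctrl-KD OIS readings were near the ceiling.

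CXCL1 (GRO alpha), a ligand of CXCR2, read 65.3 and 139 in growing cells and 33134 and 32041 in Ctrl-KD OIS cells. Its mean rose from 102 ± 52.0 to 32587 ± 773 (SD, n = 2), a log2 difference of 8.42 (standard error 0.27, adjusted p = 5.87e-08). The Ctrl-KD OIS signals were 52.5% and 61.1% of the array maximum, near the ceiling, so this change may be understated.

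CXCL2 and CXCL3 (GRO beta and gamma) are close relatives of CXCL1. CXCL2 read 32.1 and 50.4 in growing cells and 22184 and 21917 in Ctrl-KD OIS cells with its brightest probe set. CXCL3 read 30.0 and 61.5 in growing cells and 23748 and 24969 in Ctrl-KD OIS cells. Both genes were at or near the array median in growing cells, with 1 of 2 growing arrays dim in each, so the size of their rises rests on weak signals. The log2 fold changes were 9.10 for CXCL2 (standard error 0.19, adjusted p = 5.12e-09) and 9.15 for CXCL3 (standard error 0.27, adjusted p = 4e-08). These genes are near copies, and the brightest CXCL2 and CXCL5 probe sets are, like that of CXCL8, of the kind marked as able to bind related transcripts, so the signal of one relative may include another. Both remaining CXCL2 probe sets were dim on all 6 arrays. One of them read 2 and 5.3 in growing cells and 28.6 and 36.3 in Ctrl-KD OIS cells, and the other lay between 17.6 and 35.6 on all arrays. The rise of CXCL2 was thus read from 1 of its 3 probe sets.

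CXCL5 (ENA-78) and CXCL6 (GCP-2) are CXCR2 ligands with similar promoters, CXCL6 also binding CXCR1. CXCL5 read 56.3 and 27.3 in growing cells and 36289 and 24945 in Ctrl-KD OIS cells with its brightest probe set, a log2 difference of 9.58 (standard error 0.30, adjusted p = 4.95e-08). All 3 CXCL5 probe sets rose. The second went from 7 and 1.1 to 12222 and 7602, and the third from 0.6 and 4.3 to 480 and 241. Since growing cells were dim in these probe sets, their rises were at least 190-fold (adjusted p = 1.25e-06 from limma) and at least 6.72-fold (adjusted p = 7.99e-05 from limma) against the array median. CXCL6 read 9.6 and 1.5 in growing cells and 2725 and 1838 in Ctrl-KD OIS cells. Its rise was at least 44.2-fold (adjusted p = 5.9e-06 from limma). CXCL6 signals stayed at 3.01% to 5.02% of the array maximum in Ctrl-KD OIS cells, far from the ceiling.

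CXCL12, the stromal ligand of CXCR4, moved the other way. With its brightest probe set it read 131 and 171 in growing cells and 58 and 82.3 in Ctrl-KD OIS cells, and the arrays of the 2 states did not overlap. The log2 fold change was -1.11 (standard error 0.36, adjusted p = 0.0379). The other probe set read 399.8 and 693 in growing cells and 1.5 and 28.1 in Ctrl-KD OIS cells, at least 11.1-fold lower (adjusted p = 0.00186 from limma). It was the brighter of the 2 in growing cells, but its mean log2 signal over all arrays was lower because it was dim in OIS cells. The call for the brightest probe set ended without the first or the second growing array (adjusted p = 0.0845 and 0.229), without Ctrl-KD OIS replicate 1 (0.148), with quantile normalization (0.0615), with median centring (0.0514) and with no filter (0.071), within a range of 0.00737 to 0.229. No setting turned its direction.

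CXCL14 and CXCL16 gave no measurable level. The 3 CXCL14 probe sets read between 1.4 and 46.3 over the 6 arrays and the single CXCL16 probe set between 5.2 and 23.2, under the median of the array in every case. Neither gene was tested, and a difference between states was not detectable at these signals.

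**Figure D2:**
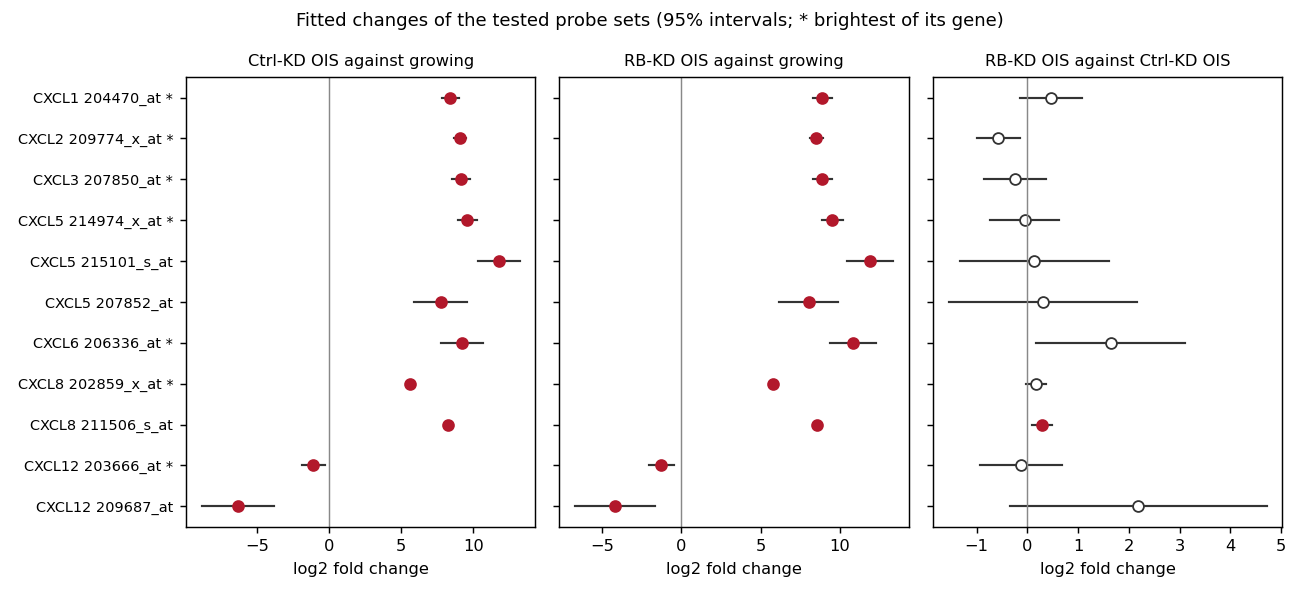
Log2 fold change with its 95% interval for the 11 probe sets tested, in the 3 comparisons (n = 2 arrays per state; filled points have an adjusted p under 0.05; each panel has its own horizontal scale). Probe sets dim in growing or OIS cells, for which the text gives bounds, are drawn at their fitted values. The changes from growing cells lie at 5.63 or above for the 6 chromosome 4 genes and under 0 for CXCL12, while the changes between the OIS states lie between -0.58 and 2.18.

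The same 6 genes were called higher and CXCL12 lower in RB-KD OIS cells against growing cells, where 18.0% of tested genes were called higher and 18.4% lower. This comparison shares the growing arrays with the previous one, so its values are set beside them and not counted as a second line of evidence. CXCL6 read 6851 and 7104 in RB-KD OIS cells, at least 138-fold above growing cells (adjusted p = 2.9e-06 from limma). CXCL5 rose by 9.53 (adjusted p = 5.87e-08), CXCL3 by 8.91 (5.12e-08), CXCL1 by 8.89 (4.63e-08), CXCL2 by 8.52 (5.48e-09) and CXCL8 by 5.79 (8.02e-10) in limma. The median over the 9 genes was 8.52, or 7.11 with CXCL6 at its bound, against -0.011 over 19775 genes. CXCL12 fell by 1.25 (adjusted p = 0.0261) with readings of 58.3 and 68.1. This call ended without either growing array or either RB-KD OIS array (adjusted p = 0.0582 to 0.186).

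Between the OIS states no member gene was called in limma with its brightest probe set, where 21.9% of tested genes were called. Unadjusted limma p values under 0.05 were found for 2 of the 7 genes tested, CXCL2 and CXCL6. The share of all tested genes with such a value is not given here, so this number is not a result about the members. The number called was 3 when the fit held the 4 OIS arrays alone, with CXCL1 and CXCL6 higher and CXCL2 lower in RB-KD OIS cells. It was also 3 without the first or without the second growing array. The share of all genes called in those fits is not given here, so nothing is read from these numbers. The log2 fold changes of CXCL1, CXCL2 and CXCL6 were the same in those fits. However, the standard error of CXCL6 was 0.65 over all 6 arrays and 0.17 over the 4 OIS arrays. The growing arrays of CXCL6, 9.6 and 1.5, were dim and far apart on the log2 scale, and they enter the spread shared by the 3 states.

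Among brightest probe sets, that of CXCL6 differed most between the OIS states. Its Ctrl-KD OIS mean was 2281 ± 627 and its RB-KD OIS mean 6977 ± 179 (SD, n = 2), with both RB-KD arrays above both Ctrl-KD arrays. The log2 fold change was 1.64 (95% interval 0.18 to 3.10, adjusted p = 0.122), and adjusted p = 0.000489 with the OIS arrays alone. Leaving out each array in turn gave 1.36 to 1.92. CXCL1 read 48880 and 41716 in RB-KD OIS cells against 33134 and 32041, a log2 fold change of 0.47 (95% interval -0.14 to 1.08, adjusted p = 0.288, and 0.0196 with the OIS arrays alone). Both states of CXCL1 lay near the ceiling.

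CXCL2 was the member with the lowest ratio. Against the Ctrl-KD OIS readings of 22184 and 21917, those of RB-KD OIS cells were 13321 and 16440, without overlap and at 20.6% to 40.9% of the array maximum. The log2 fold change was -0.58 (95% interval -0.999 to -0.15, adjusted p = 0.0671), and adjusted p = 0.0128 with the OIS arrays alone. Its adjusted p values ran from 0.0128 to 0.352 over all settings, and the change from -0.73 to -0.42. Among the 7 tested member genes, arrays did not overlap in 3 upward (CXCL1, CXCL6 and CXCL8) and 1 downward (CXCL2), where 28.8% and 30.8% of tested genes showed this, so this number is not a result about the members.

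CXCL3 and CXCL5 arrays overlapped between the OIS states. CXCL3 read 17721 and 23940 in RB-KD OIS cells (log2 fold change -0.24, 95% interval -0.86 to 0.38). CXCL5 read 25147 and 33515 (-0.052, -0.73 to 0.62), and its other probe sets gave 0.14 and 0.31. The sign of the CXCL5 change turned when replicate 1 of either OIS state was left out and when its probe sets were averaged. The intervals of CXCL3 and CXCL5 hold changes in both directions, so equal expression in both OIS states was not shown. CXCL8 read 57820 and 53673 with its brightest probe set, 89.4% to 92.2% of the array maximum (log2 fold change 0.17, 95% interval -0.036 to 0.37). Its other probe set read 48544 and 46158, above both Ctrl-KD arrays, and was the single member probe set of 11 tested that was called (0.29, 95% interval 0.095 to 0.48, adjusted p = 0.0477), where 16.9% of tested probe sets were called. All 8 readings of CXCL8 in OIS cells were near the ceiling, so neither value sizes a difference between the OIS states. CXCL12 gave -0.13 (95% interval -0.94 to 0.67) and 2.18 (-0.34 to 4.71) in its probe sets, the latter from dim signals.

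**Figure D3:**
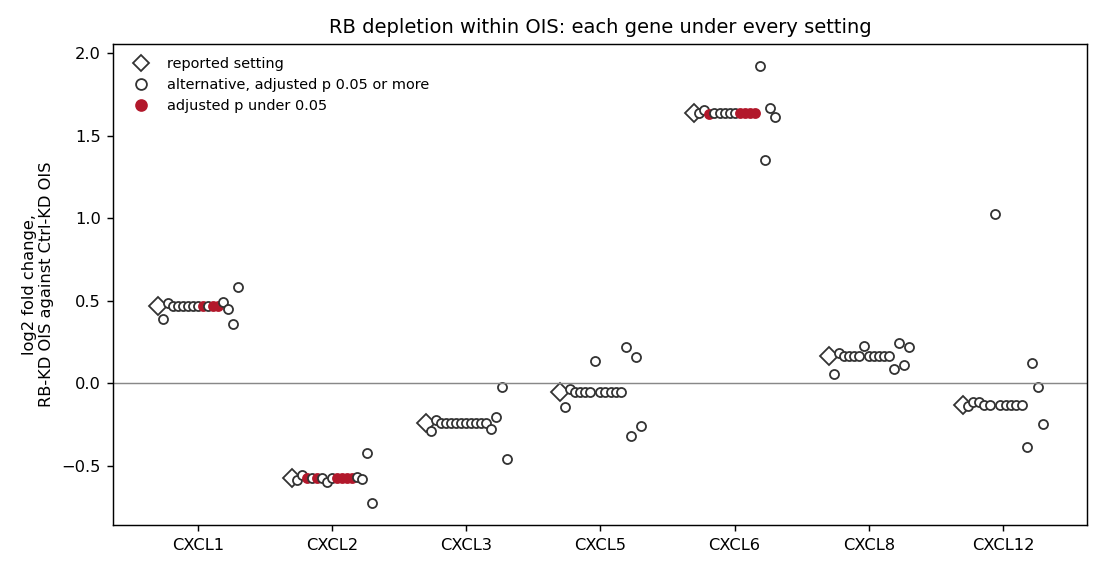
Log2 fold change of RB-KD against Ctrl-KD OIS cells for each tested member gene under the reported setting (diamond) and 16 alternatives (circles), filled where the adjusted p is under 0.05. CXCL6 stays between 1.36 and 1.92 and CXCL2 between -0.73 and -0.42, with calls in some settings, whereas CXCL5 and CXCL12 lie on both sides of 0.

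The 6 members of the chromosome 4 cluster were called higher, whereas no rise was called for the genes between them. From CXCL8 to CXCL2 there are 9 protein-coding genes in RefSeq order, and the 3 that are not members are the platelet chemokines PF4V1, PF4 and PPBP. PF4 read 79.7 and 50.8 in growing, 93.4 and 133.1 in Ctrl-KD OIS and 81 and 152 in RB-KD OIS cells, and did not pass the test in either comparison with growing cells (adjusted p = 0.174 and 0.186). PPBP was dim on all 6 arrays with 1.1 to 38.6, and PF4V1 on 5 of 6, and neither was tested. Every OIS reading of PF4 lay above both growing readings, so the absence of a rise in these 3 genes was not shown. From here on, pairs of changes give Ctrl-KD OIS first and RB-KD OIS second, both against growing cells. Beside CXCL2 lies MTHFD2L, a mitochondrial folate enzyme, which rose by 2.26 and 2.21 (adjusted p = 2.21e-05 and 3.71e-05). EREG, the EGF receptor ligand epiregulin, stands farther along. It rose by 5.21 and 4.36 (adjusted p = 7.34e-09 and 2.17e-08). EREG was also the 1 of 12 tested neighbours called between the OIS states, at -0.85 (adjusted p = 0.00138), where 21.9% of tested genes were called. On the CXCL8 side, RASSF6, AFM and ALB were dim on all arrays, and AFP and ANKRD17 did not pass the test. COX18, farther out, was called lower, at -0.45 and -0.65 (adjusted p = 0.0147 and 0.00263). Over all 12 tested neighbours, 6 were called higher and 1 lower in Ctrl-KD OIS, and 5 and 1 in RB-KD OIS. Shares over all tested genes were 19.9% and 20.7% in the first comparison, and 18.0% and 18.4% in the second. Besides MTHFD2L and EREG, those higher in Ctrl-KD OIS were RCHY1, THAP6, G3BP2 and NAAA.

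**Figure D4:**
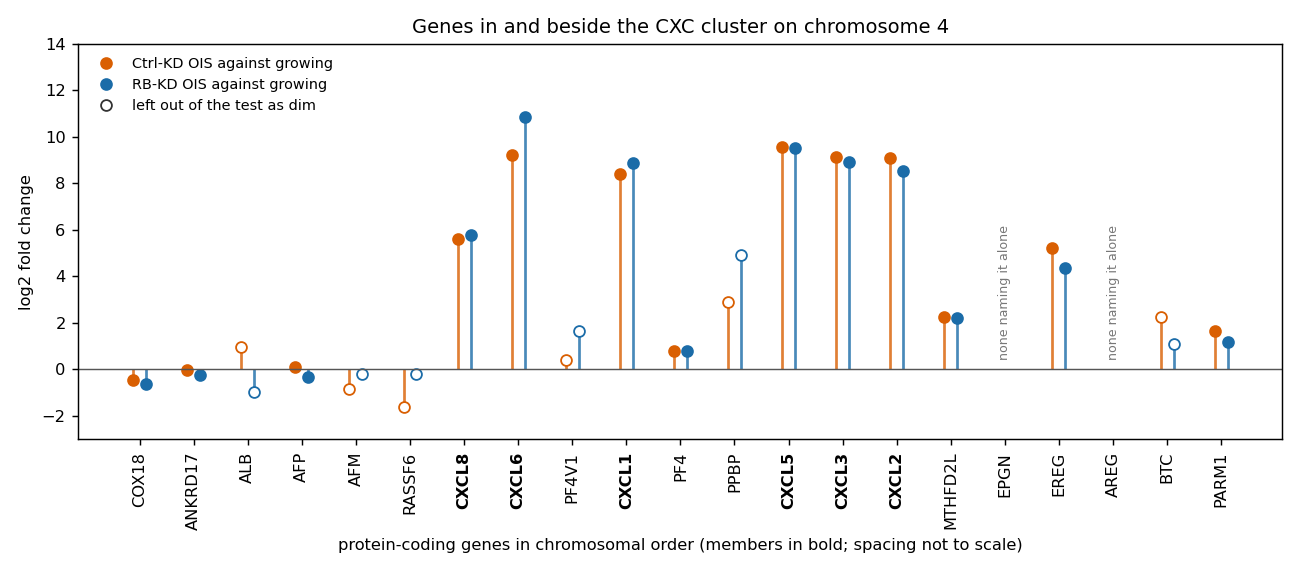
Log2 fold change against growing cells in Ctrl-KD OIS (orange) and RB-KD OIS cells (blue) for protein-coding genes in chromosomal order, without distances; open points are genes too dim to test, and filled points were tested, whether or not called. CXCL6, dim in growing cells, is drawn at its fitted value, though only at least 44.2-fold and 138-fold are measured. The other 5 members in bold stand at 5.63 to 9.58, PF4 between them at 0.81 and 0.80, and EREG at 5.21 and 4.36.

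Among 8 other CXC ligands, 3 were tested, and CXCL10 and CXCL11, the interferon-induced ligands of CXCR3, rose in both OIS states. CXCL10 rose by 2.40 and 4.58 (adjusted p = 0.000113 and 2.68e-06), and CXCL11 was at least 5.37-fold and at least 48.5-fold higher (adjusted p = 5.47e-05 and 9.99e-07 from limma). Both were called higher in RB-KD than Ctrl-KD OIS cells, by 2.18 for CXCL10 (adjusted p = 0.000818) and 3.18 for CXCL11 (adjusted p = 0.000276). CXCL10 read 227 ± 3.89 in growing, 1269.5 ± 599 in Ctrl-KD OIS and 5471 ± 1099 in RB-KD OIS cells (SD, n = 2). PPBP, CXCL13 and CXCL17 were dim on all arrays.

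The receptors through which the 6 ligands act were at the limit of the arrays. CXCR2 was dim on all 6 arrays and CXCR1 on 5 of 6. Of 8 receptors, 5 were dim on every array and 2 were tested. ACKR3, a scavenger of CXCL12, rose by 2.05 and 1.71 (adjusted p = 0.000461 and 0.00178). CXCR4 had -0.57 and -1.39 without passing (adjusted p = 0.622 and 0.213).

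Tested proteases known to trim or release CXC ligands were mostly higher in OIS. Of 11 tested of 15 listed, Ctrl-KD OIS had 8 higher and 1 lower, and RB-KD OIS had 9 higher and 1 lower, with medians of 0.97 and 1.02 against -0.0090 and -0.015 over all tested genes. Of all tested genes 19.9% were called higher and 20.7% lower in Ctrl-KD OIS, and 18.0% and 18.4% in RB-KD OIS. MMP3, stromelysin 1, rose by 5.06 and 5.08 (adjusted p = 1.26e-06 and 1.71e-06). It read 48175 and 54237.5 in Ctrl-KD OIS and 52724 and 50760.5 in RB-KD OIS cells. These readings were near the ceiling on every OIS array, so both rises may be understated. MMP12, an elastase that cleaves these ligands, was at least 26.5-fold and at least 72-fold higher (adjusted p = 1.98e-08 and 5.02e-09 from limma) and was higher by 1.44 with RB depletion between the OIS states (adjusted p = 0.000228). MMP12 was dim in growing cells and met the filter through its OIS arrays, so it adds no support to these counts. ANPEP and DPP4, which remove amino acids from the ends of chemokines, also rose. ANPEP had 2.81 and 1.43 (adjusted p = 7e-07 and 6.67e-05) and DPP4 1.62 and 0.54 (adjusted p = 5.07e-05 and 0.0315). Between the OIS states ANPEP fell by 1.38 and DPP4 by 1.08 with RB depletion (adjusted p = 0.000291 and 0.00202). ADAM10, which sheds CXCL16, fell by 0.59 and 0.40 (adjusted p = 0.000738 and 0.00798) against growing cells. The neutrophil proteases ELANE and PRTN3 were dim on all arrays.

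Of 25 listed activators of CXC ligand transcription, 23 were tested. Ctrl-KD OIS had 10 higher and 3 lower, with a median of 0.34, and RB-KD OIS had 10 higher and 4 lower, with a median of 0.38. Over all tested genes 19.9% were higher and 20.7% lower in the first comparison and 18.0% and 18.4% in the second, with medians near 0. The interleukin 1 genes stood out in size. IL1B read 186 and 187.5 in growing, 45452 and 56834 in Ctrl-KD OIS and 59101 and 53487 in RB-KD OIS cells, near the ceiling on every OIS array. Its rises were 8.09 and 8.23 (adjusted p = 3.34e-10 and 2.83e-10), and those of IL1A were 7.46 and 8.19 (adjusted p = 1.34e-07 and 8.35e-08). IL1A read 32.2 and 65.9 in growing cells, the first of them dim, so the size of its rises rests on weak signals. It met the filter through its OIS arrays and adds no support to the counts of activators called higher. NFKBIZ, the NF-kB cofactor IkB zeta, rose by 3.90 and 4.01 (adjusted p = 2.21e-08 and 2.14e-08), and the C/EBP factor gene CEBPB by 1.12 and 1.13 (adjusted p = 7.46e-06 and 9.89e-06). RELA and NFKB1, which encode NF-kB subunits, did not pass in either OIS state (RELA 0.024 and -0.27, adjusted p = 0.902 and 0.117, and NFKB1 0.027 and 0.28, adjusted p = 0.885 and 0.0943), and TNF was dim on all arrays. Between the OIS states 2 activators were higher and 2 lower, CHUK and IKBKB at 0.60 and 0.52 (adjusted p = 0.00679 and 0.0226) and FOSL1 and IRAK1 at -0.92 and -0.71 (adjusted p = 0.00188 and 0.00149). Over all tested genes 21.9% were called in this comparison, so nothing is read from that number.

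Of 9 tested repressors of these transcripts or of NF-kB, 3 were higher and 1 lower in both OIS states against growing cells. With so few genes these counts are near the shares over all tested genes given above, and nothing is read from them. TNFAIP3 (A20), an NF-kB inhibitor that NF-kB itself induces, rose by 1.87 and 1.94 (adjusted p = 1.79e-06 and 1.98e-06), and its partner TNIP1 by 1.76 and 1.54 (adjusted p = 4.2e-07 and 1.3e-06). ZFP36, which destabilizes cytokine mRNAs, fell by 0.68 and 0.83 (adjusted p = 0.0232 and 0.0104). SIRT1 was the single one called between the OIS states, at 0.66 (adjusted p = 0.0176), where 21.9% of tested genes were called.

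The genes most like each member were found by the Euclidean distance between log2 signals, each taken relative to the mean of the growing arrays, over 6 arrays and 13397 other genes. CXCL2 and CXCL3 were each other's nearest gene, at a distance of 0.62, followed by TNFSF15 for CXCL2 (1.01) and CXCL1 for CXCL3 (1.14). CXCL5 lay nearest to CXCL3 (1.88) and CXCL6 nearest to CXCL5 (2.27), with MRGPRX3 also among the 3 nearest of both. CXCL1 lay closest to EHF, an ETS factor gene of epithelia (0.53), BCL2A1, an anti-apoptotic NF-kB target (0.81), and TNFSF15 (1.04). CXCL8 lay closest to the transporter gene SLC6A15 (0.71), SCG5 (0.91) and the cathepsin gene CTSS (0.96), and CXCL12 to ITSN1 (0.23), MAB21L2 (0.27) and CNN2 (0.28). These distances are a description over 6 arrays.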

How the data were processed

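RNA of 6 samples was hybridized to Affymetrix U133 Plus 2.0 arrays. The authors computed the deposited intensities with MAS5 in Affymetrix Expression Console, whose versions are not given in the sources used here. These linear signals carry no detection calls here. The number of arrays limits the precision: with 2 in each state, the smallest p of an exact permutation test (two-sided) is 0.333.

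The log2 of each signal was used, without offset or normalization. Probe sets above percentile 50 of the array on at least 2 of 6 arrays (30139) were fitted with limma 3.58.1 in R 4.3.3, with a mean per state, a trended prior variance and Benjamini-Hochberg adjustment over all of them (threshold 0.05). A gene was its brightest probe set (highest mean log2 signal) among those naming it alone. Folds from a state dim on all its arrays are bounds, computed against the array median. As alternatives, the normalization (quantile, median centring), offset, filter, trend, gene summary, samples in the fit and a replicate block were varied. Calls were tested on simulated data. Promoters came from RefSeq windows of 300 bases on GRCh38.p14 (8 of 9 members; CXCL16 not matched) and were aligned with Biopython 1.88. No protein sequence was used, and the planned comparison of proteins was not made.

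The named genes are the members, RB1, up to 4 called genes of each list with the largest change, and the 3 genes most like each member. Other genes of the lists were named after their values were seen. The members and lists were chosen with earlier results of these data known. The lists were written from background knowledge.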

Additional observations from a re-analysis of the deposited data

How the results depend on the processing

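Under 16 alternatives, each OIS state had 6 to 7 member genes called against growing cells (7 reported), and the 6 neutrophil attractants were called higher in all of them. Every lost call was that of CXCL12, which the filter at percentile 70 left out of the test. Between the OIS states no gene was reported as called. With an offset of 12.5 (percentile 25 of all signals) there were 2, CXCL2 and CXCL6, and with a filter at percentile 70 there was 1, CXCL2, among 6 tested. With the OIS arrays alone there were 3, and without 1 array each 0 to 3. The replicate block gave 2, CXCL2 (adjusted p = 0.0204) and CXCL6 (adjusted p = 0.044) in limma. The share of all genes called under these alternatives is not given here, so nothing is read from these numbers. Same-numbered arrays did not deviate together (r of -0.014 to 0.036 between states over 30139 probe sets). This cannot show whether they came from the same experiment. The paper states that the RNA came from 2 independent experiments, and the reported fit held no replicate block. Signs turned for CXCL5 (0.13 with the mean of all probe sets, 0.16 without RB-KD OIS replicate 1, and from -0.32 to 0.22 over all single arrays left out) and for CXCL12 (1.02 with that mean, and from -0.39 to 0.12 over single arrays left out), all without a call. The mean of all probe sets lowered the rise of CXCL2 to 4.35 and 3.75 because it takes in both dim probe sets. Signal over background limits CXCL14, CXCL16 and the growing levels of CXCL2, CXCL3, CXCL5 and CXCL6, and the ceiling limits CXCL1, CXCL8 and the brightest CXCL5 probe set in OIS cells.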
